A study of Mus musculus with 16 samples.

Results

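The 7 genes of phosphate and pyrophosphate handling described here were followed through 14 ChIP-seq lists, which give the places where an immunoprecipitated protein or histone mark was enriched along the genome. The cells were MC3T3-E1, an established mouse pre-osteoblast line that lays down mineralised matrix in culture. The genes are Alpl, Phospho1, Enpp1, Ank, Phex, Slc20a1 and Slc20a2. They were taken by name for their role in mineralisation and not for any value measured here, and they are 7 of the 22239 genes of the annotation. The cells were used at passages 5 to 12 in 2 states. Undifferentiated cells were kept in growth medium, and differentiated cells had spent 15 days with ascorbic acid at 50 µg/mL and glycerol-2-phosphate at 10 mM. For every list the cells had received the ethanol vehicle 3 h earlier, and each state had 1 list for each of 7 antibodies. The antibodies were against the transcription factors RUNX2 and C/EBPβ and the histone modifications H3K4me3, H3K9Ac, H4K5Ac, H3K4me1 and H3K36me3. The 2 input samples were not analysed here. Per the protocol, mineralised matrix was removed from the differentiated cultures with a homogeniser and a sucrose spin before immunoprecipitation, a step given for those cultures alone, and its part in any difference was not tested.

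Bone mineral is built from calcium and phosphate, and inorganic pyrophosphate, a pair of linked phosphates, blocks its growth. Enpp1 encodes an ecto-enzyme that makes pyrophosphate from extracellular nucleotides, and Ank encodes a membrane protein needed for its release from cells. Alpl encodes tissue-nonspecific alkaline phosphatase, which cleaves pyrophosphate and frees phosphate, and Phospho1 encodes a phosphatase that frees phosphate from phosphocholine and phosphoethanolamine inside matrix vesicles, the membrane particles in which the first mineral forms. Slc20a1 and Slc20a2 encode sodium-coupled phosphate importers, and Phex encodes a cell-surface endopeptidase of osteoblasts and osteocytes whose loss causes X-linked hypophosphataemia. RUNX2 is a transcription factor that osteoblasts need in order to form, and C/EBPβ is a basic leucine zipper factor. H3K4me3 lies at active promoters, H3K9Ac and H4K5Ac at active regulatory regions, H3K4me1 at enhancers and promoter flanks, and H3K36me3 over the bodies of transcribed genes.

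The lists held 12674 RUNX2 peaks in undifferentiated and 6272 in differentiated cells, and 15622 and 10847 C/EBPβ peaks. H3K9Ac had 14975 and 23671 regions. Counts per gene move with these list lengths, and the part of list length in the RUNX2 and C/EBPβ counts was not tested, since the deposited score of their peaks was 0 throughout and gave no way to cut the lists to equal length. Each list merged the peaks of biological replicates, which cannot be seen separately, so differences between the states had no replicate check and no p-value is given. Read depth is unknown. A weaker site in all cells and a site in fewer cells cannot be told apart. Of 7 osteoblast marker genes, Alpl among them, 6 had H3K9Ac at the promoter in each state. H3K4me3 was at the promoter of 5 before and 4 after, and H3K36me3 in the body of 5 and 6. Of 19 markers of muscle, fat, blood, nerve and endothelium, 0 had H3K4me3 at the promoter or H3K36me3 in the body in either state, and 1, a neural gene, had H3K9Ac at the promoter in differentiated cells.

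In both states Alpl, Phospho1, Ank and Slc20a1 held most of the RUNX2 peaks, and Enpp1 and Slc20a2 held none by nearest transcription start site (TSS). A peak counted for the gene whose TSS was closest to the peak's centre, up to 100 kb. Undifferentiated cells had 6 RUNX2 peaks at Alpl, 4 at Slc20a1, 3 at Ank and 1 each at Phospho1 and Phex. Differentiated cells had 2 at Alpl, 2 at Ank, 1 at Phospho1, 1 at Slc20a1 and 0 at Phex. The total was 15 peaks before and 6 after, a ratio of 0.4, beside 0.485 for the peaks of all genes. Of the 15 peaks, 5 overlapped a differentiated peak by at least 1 bp and are called kept, 10 did not and are called lost, and 1 differentiated peak, at Ank, had no undifferentiated partner and is called gained. Over the whole lists, 36.4% of undifferentiated RUNX2 peaks were kept and 63.6% lost, and 26.2% of differentiated ones were gained. At least 1 RUNX2 peak was listed for 5 of the 7 before, against 27.3% of all genes, and for 4 after, against 15.0%. Fewer peaks in differentiated cells were found at 4 of the 7, beside 19.8% of all genes and 72.6% of the genes that had a peak to begin with. More were found at 0 of the 7, against 2.92% of all genes. With 5 genes that had a peak to lose, 4 with fewer is close to that background.

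**Figure D1:**
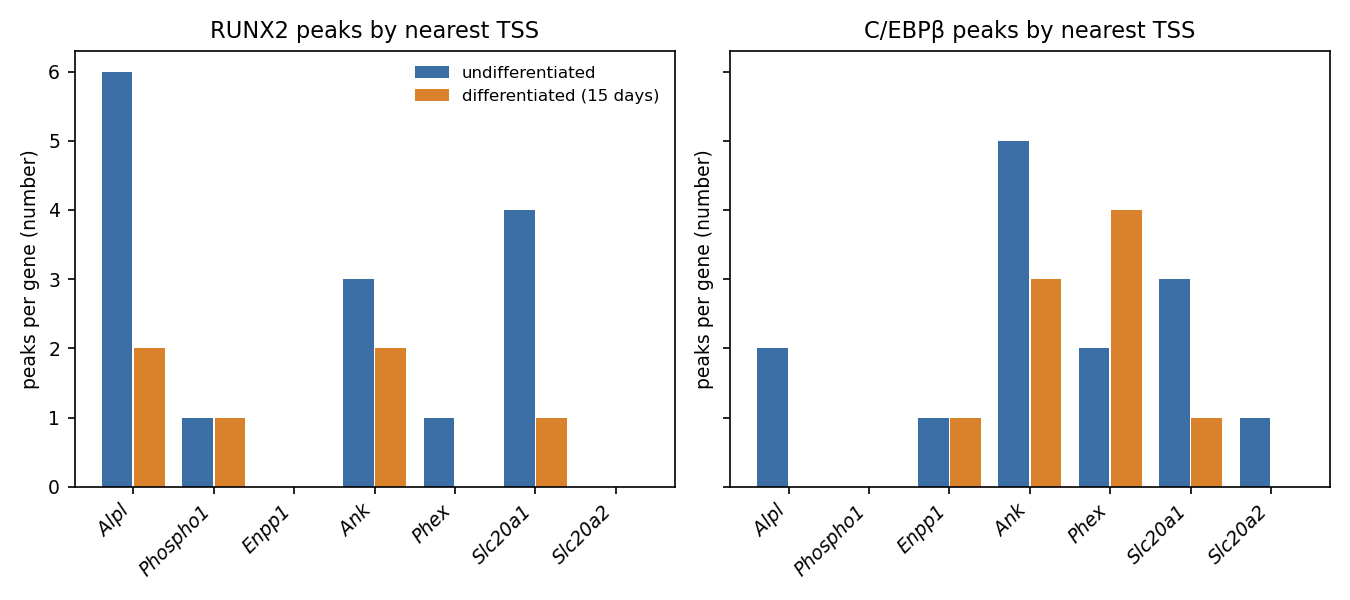
Number of RUNX2 peaks (left) and C/EBPβ peaks (right) by nearest TSS within 100 kb at each of the 7 genes, with undifferentiated cells in blue and differentiated cells in orange; each bar is a count in 1 merged list, so there are no error bars. Alpl had 6 and 2 RUNX2 peaks, Slc20a1 4 and 1, and Phex had 2 and 4 C/EBPβ peaks.

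C/EBPβ peaks numbered 14 before and 9 after, a ratio of 0.643 beside 0.696 for all genes, with 5 kept, 9 lost and 4 gained. Over the whole lists, 43.1% of undifferentiated C/EBPβ peaks were kept and 56.9% lost, and 37.9% of differentiated ones were gained. By gene the counts were 2 and 0 at Alpl, 0 and 0 at Phospho1, 1 and 1 at Enpp1, 5 and 3 at Ank, 2 and 4 at Phex, 3 and 1 at Slc20a1, and 1 and 0 at Slc20a2. A peak was present at 6 of the 7 genes before (27.7% of all genes) and at 4 after (21.8%). Fewer were counted at 4 genes, beside 16.1% of all genes and 58.1% of those with a peak, and more at 1 gene, Phex, beside 6.16% of all genes. These counts rest on distant peaks more than those of RUNX2 do. Limited to peaks within 20 kb of a TSS, the totals were 8 and 2, and 0 genes had more. The peak farthest from its gene within the limit lay 89243 bp from a TSS of Phex, and one left out, inside the Phex gene in both states, lay -111200 bp from a Phex TSS in undifferentiated cells.

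Alpl, the alkaline phosphatase that removes pyrophosphate, had the most RUNX2 peaks of the 7 genes in undifferentiated cells, 6, and as many as Ank in differentiated cells, 2. The gene lies at chr4:137297648-137352299 on the minus strand (mm9), spans 54.7 kb and has 8 annotated TSSs. Its 6 undifferentiated peaks stood in 2 groups, one toward each end of the gene. In all, 0.886% of all genes had 6 or more peaks in undifferentiated cells, and 0.85% lost 4 or more. Toward the 5′ end, a kept peak at chr4:137349637-137349837 was centred 2562 bp into the gene in an intron, and its differentiated partner was centred 18 bp away. A lost peak at chr4:137348763-137348963 lay in the same stretch, with its centre 856 bp from the closest differentiated peak. Toward the 3′ end, a kept peak at chr4:137300574-137300774 lay in an intron 51625 bp from the 5′ end of the gene, and its partner was centred 81 bp away. The other 3 lost peaks were at chr4:137297503-137297703, centred just beyond the 3′ end of the gene, and at chr4:137304781-137304981 and chr4:137308271-137308471, centred in introns. A further undifferentiated peak at chr4:137292252-137292452 went to the neighbouring Rap1gap by nearest TSS, and with it counted by gene body plus 10 kb Alpl had 7 peaks before and 2 after.

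Each of the 6 Alpl peaks held 1 match to the RUNX motif, searched as TGTGGT or TGCGGT on both strands. Both kept peaks and the lost peak closest to one of them are shown, on the plus strand of mm9 from 5′ to 3′, with the motif in capitals, where ACCACA is the reverse complement of TGTGGT.
Alpl kept, toward the 5′ end, chr4:137349637-137349837: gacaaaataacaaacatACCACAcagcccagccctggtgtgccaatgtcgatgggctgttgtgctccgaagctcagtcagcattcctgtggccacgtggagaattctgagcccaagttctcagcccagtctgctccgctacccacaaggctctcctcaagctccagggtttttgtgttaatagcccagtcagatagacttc
Alpl lost, toward the 5′ end, chr4:137348763-137348963: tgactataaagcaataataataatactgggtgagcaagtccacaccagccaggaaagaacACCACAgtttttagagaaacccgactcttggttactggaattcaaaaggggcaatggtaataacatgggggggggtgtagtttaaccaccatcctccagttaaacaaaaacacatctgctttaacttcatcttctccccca
Alpl kept, toward the 3′ end, chr4:137300574-137300774: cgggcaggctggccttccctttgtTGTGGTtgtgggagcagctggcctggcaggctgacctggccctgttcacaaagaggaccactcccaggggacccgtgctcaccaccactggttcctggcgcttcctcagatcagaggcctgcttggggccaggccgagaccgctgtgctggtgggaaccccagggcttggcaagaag
The motif alone did not separate the kept peaks from the lost one, since all 3 sequences carry 1 match. A match was present in 61.7% of all undifferentiated RUNX2 peaks and 71.1% of differentiated ones, and in 16.7% and 17.0% of windows of the same size 1 kb to either side. Over the 7 genes, 13 of 15 undifferentiated and 5 of 6 differentiated peaks held one.

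The acetylation of H3K9 at Alpl was far wider in differentiated cells, while its RUNX2 peaks were fewer. Undifferentiated cells had 2 H3K9Ac regions over the gene, at chr4:137303912-137308223 (4.31 kb) and chr4:137348989-137352760 (3.77 kb). Differentiated cells had regions at chr4:137295527-137310562 (15.0 kb), chr4:137320472-137328611 (8.14 kb), chr4:137338757-137341517 (2.76 kb) and chr4:137344090-137352990 (8.90 kb), and another downstream at chr4:137284421-137293937 (9.52 kb). Of the gene with 20 kb on each side, H3K9Ac covered 8.54% before and 46.9% after, a difference of 38.3 percentage points. This was the difference of rank 11 among 22239 genes, counted from the highest, and of rank 28 when the longer H3K9Ac list was cut by score to the length of the shorter. H3K9Ac lay within 1 kb of 3 of the 8 TSSs before and of all 8 after. Of the 4 lost RUNX2 peaks, the peak at chr4:137304781-137304981 lay in H3K9Ac before, and each of the 4 did after. Over all lost RUNX2 peaks the shares were 54.7% before and 73.6% after.

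H4K5Ac formed a single domain over the whole of Alpl in both states. It spanned 73.2 kb at chr4:137285173-137358377 before and 79.0 kb at chr4:137284181-137363205 after, within the widest 0.671% and 0.395% of regions of their lists. It covered 85.9% and 88.2% of the window and lay at all 8 TSSs in each state, as did H3K4me1, which covered 68.2% and 76.6%. Neither H3K4me3 nor H3K36me3 was called at Alpl in either state. The closest H3K4me3 regions were 63.0 kb and 64.7 kb away, at the promoter of Ece1, and H3K36me3 covered 0% of the gene body. The combination of both acetylations at a promoter with neither H3K4me3 there nor H3K36me3 in the body was held by 3.11% of all genes before, 4.29% after and 1.89% in both states. With a RUNX2 peak in both states as well, the share was 0.319%, or 71 genes. The conditions were those that Alpl met, and each one added lowers the share. Both C/EBPβ peaks at Alpl, at chr4:137339740-137339940 and chr4:137350257-137350457 in introns, were lost, and the closest differentiated C/EBPβ peak was 93.9 kb from the gene.

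**Figure D2:**
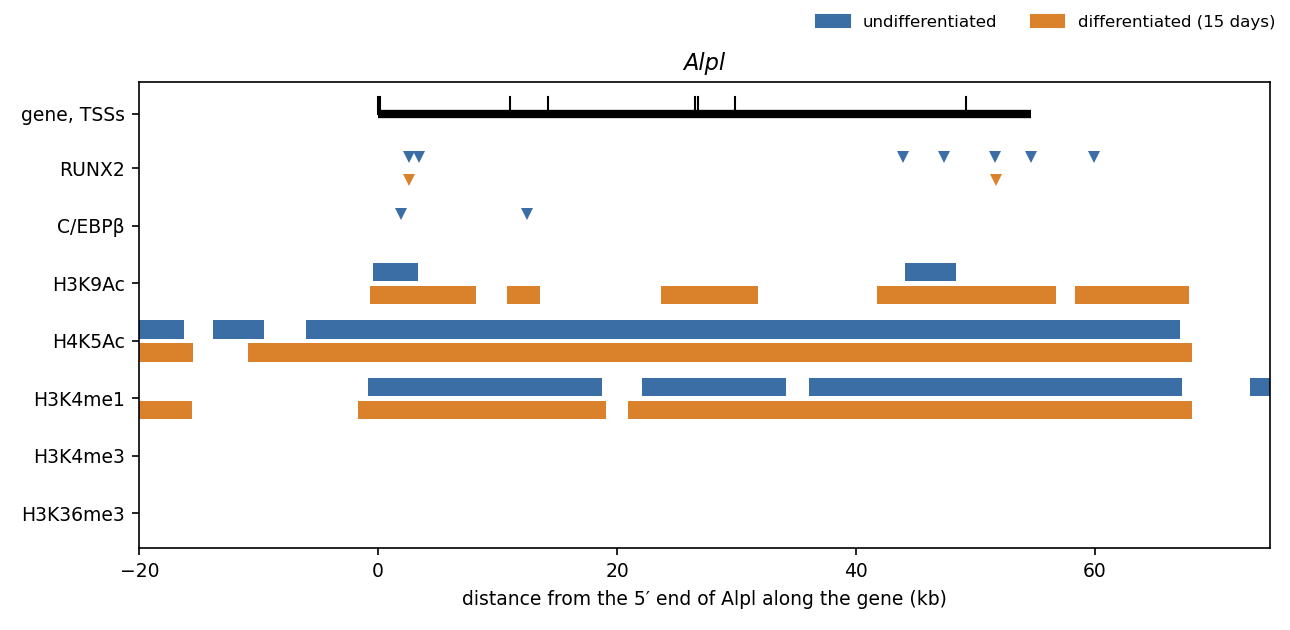
Peaks (triangles) and regions (bars) around Alpl by distance in kb from the 5′ end of the gene, in undifferentiated (blue) and differentiated (orange) cells; the black bar is the gene and ticks are its TSSs. H4K5Ac spanned the gene in both states, the 2 H3K9Ac regions of undifferentiated cells were wider in differentiated cells and joined by further ones, and the H3K4me3 and H3K36me3 tracks are empty.

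Phospho1, the matrix vesicle phosphatase, kept its 1 RUNX2 peak and had H3K4me3 and H3K36me3 called in differentiated cells and neither mark in undifferentiated cells. The gene lies at chr11:95685813-95693454 on the plus strand, spans 7.64 kb and has 3 annotated TSSs. The kept peak, at chr11:95669743-95669943, was centred 15970 bp upstream, inside an intron of the neighbouring Zfp652, and its differentiated partner was centred 6 bp away. It held 2 RUNX matches in opposite orientation, 9 bp apart, and is shown with both in capitals.
Phospho1 kept, chr11:95669743-95669943: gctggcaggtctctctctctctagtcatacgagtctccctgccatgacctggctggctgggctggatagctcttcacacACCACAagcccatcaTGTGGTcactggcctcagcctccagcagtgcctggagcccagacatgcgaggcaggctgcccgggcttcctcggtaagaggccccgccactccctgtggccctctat
Peaks with 2 or more matches made up 17.4% of the undifferentiated and 23.8% of the differentiated RUNX2 list. The site lay in H4K5Ac and H3K4me1 in both states and in H3K9Ac in differentiated cells, where a region of 2.11 kb at chr11:95668956-95671068 covered it. Another undifferentiated RUNX2 peak, at chr11:95698475-95698675, lay 5.02 kb past the 3′ end of Phospho1 and went to Gngt2 by nearest TSS. Counted within 20 kb of a TSS, Phospho1 had 2 peaks before and 1 after.

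At the Phospho1 promoter, H3K4me3 was called at chr11:95685739-95687254 (1.52 kb) in differentiated cells, within 1 kb of 2 of the 3 TSSs, and at none of them before. The H3K9Ac region there was 2.08 kb wide before, at chr11:95684938-95687016, and 5.99 kb after, at chr11:95684602-95690586. H3K9Ac covered 4.36% and 20.8% of the gene with its flanks, a difference of 16.5 points and rank 402 of all genes. With the 2 lists at equal length the difference was 8.20 points and its rank 1152. H3K4me1 covered 46.2% and 64.0%, and H4K5Ac 59.9% and 62.5%, where regions of 15.4 kb and 9.93 kb before were 1 region of 29.1 kb after. H3K36me3 covered 0% of the body before and 61.1% after, through a region of 6.21 kb at chr11:95688784-95694988. That region lay inside Zfp652, which spans all of Phospho1 on the same strand, and ran over the 3′ end of Abi3, on the opposite strand, so the gene it belongs to cannot be told from the lists. A change from neither H3K4me3 nor H3K36me3 to both, the combination that Phospho1 showed, was found for 0.166% of all genes, or 37 genes. The H3K4me3 region ranked at 73.5% of its list by the authors' score, counted from the highest, and the H3K36me3 region at 50.7%, so neither remained when the top 50% of each list by score was used.

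Ank, which encodes the membrane protein of pyrophosphate release, had active promoter marks and a body covered with H3K36me3 in both states, and wider H4K5Ac and H3K4me1 in differentiated cells. The gene lies at chr15:27396432-27524664 on the plus strand, spans 128.2 kb and has 2 annotated TSSs. H3K4me3 and H3K9Ac lay at 1 of the 2 TSSs in both states, H3K4me1 at 2 of 2, and H4K5Ac at 1 before and 2 after. The H3K4me3 region was 4.79 kb wide before and 3.38 kb after. H4K5Ac covered 32.5% of the gene and its flanks before and 56.8% after, a difference of 24.3 points that ranked 82 of all genes. H3K4me1 covered 37.5% and 57.7%, a difference of 20.2 points and rank 201. H3K9Ac covered 2.33% and 7.35%. H3K36me3 covered 63.8% and 75.2% of the body. Its widest region, 87.0 kb before and 88.6 kb after, also spanned the neighbouring Fam105b.

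The RUNX2 peaks of Ank were spread from -84904 bp upstream to an intron 110375 bp into the gene, and none lay within 1 kb of a TSS. A kept peak at chr15:27311439-27311639 was the farthest upstream, with its partner centred 11 bp away. Lost peaks were at chr15:27335530-27335730, -60802 bp from the TSS, and at chr15:27415576-27415776 in an intron, which had 0 RUNX matches. The gained peak was at chr15:27506707-27506907, in an intron 5603 bp from the internal TSS, with 1 match. C/EBPβ peaks were kept at chr15:27348504-27348704 and chr15:27499779-27499979, lost at chr15:27311463-27311663, chr15:27407524-27407724 and chr15:27415969-27416169, and gained at chr15:27417139-27417339. At the farthest site upstream the 2 factors overlapped in undifferentiated cells, with centres 24 bp apart, and the C/EBPβ peak was lost while the RUNX2 peak was kept. Its sequence is shown with the RUNX match in capitals.
Ank kept, chr15:27311439-27311639: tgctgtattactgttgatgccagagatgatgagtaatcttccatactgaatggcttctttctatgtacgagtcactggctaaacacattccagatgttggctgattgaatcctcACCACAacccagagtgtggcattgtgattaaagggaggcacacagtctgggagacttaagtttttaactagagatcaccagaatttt
With a limit of 50 kb, or by gene body plus 10 kb, Ank had as many RUNX2 peaks after as before.

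Slc20a1, the first of the phosphate importers, was the only one of the 7 genes with a RUNX2 peak at a promoter, and it had 4 peaks before and 1 after. The gene lies at chr2:129024500-129037352 on the plus strand, spans 12.9 kb and has 7 annotated TSSs. The lost peak at chr2:129024273-129024473 was centred -127 bp from the 5′ end. It overlapped a C/EBPβ peak at chr2:129024371-129024571, centred -29 bp from the 5′ end, that was lost as well. Peaks of both factors at a promoter were found for 4.66% of all genes before. Another pair, RUNX2 at chr2:129038333-129038533 and C/EBPβ at chr2:129038335-129038535, had centres 2 bp apart downstream of the gene, and both were lost. A RUNX2 peak at chr2:129054392-129054592, 21396 bp from the nearest TSS with 2 RUNX matches, was lost too. The kept peak, at chr2:129032517-129032717 in an intron, was centred -479 bp from an internal TSS, and its partner was 57 bp away. A C/EBPβ peak at chr2:129035973-129036173, also in an intron, was kept.

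The promoter peak at the 5′ end and the downstream peak are shown because neither factor was called there in differentiated cells. The intronic one is shown because it was kept with 0 matches to the searched letters. Capitals mark RUNX matches.
Slc20a1 lost with C/EBPβ, promoter, chr2:129024273-129024473: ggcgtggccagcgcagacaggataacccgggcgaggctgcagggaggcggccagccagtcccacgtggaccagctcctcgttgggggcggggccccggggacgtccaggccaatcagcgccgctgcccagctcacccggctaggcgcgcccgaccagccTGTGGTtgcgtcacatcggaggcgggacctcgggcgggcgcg
Slc20a1 lost with C/EBPβ, downstream, chr2:129038333-129038533: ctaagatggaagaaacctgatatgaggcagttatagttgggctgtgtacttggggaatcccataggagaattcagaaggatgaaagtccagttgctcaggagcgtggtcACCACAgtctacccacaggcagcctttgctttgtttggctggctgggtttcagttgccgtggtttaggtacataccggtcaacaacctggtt
Slc20a1 kept, intron, chr2:129032517-129032717: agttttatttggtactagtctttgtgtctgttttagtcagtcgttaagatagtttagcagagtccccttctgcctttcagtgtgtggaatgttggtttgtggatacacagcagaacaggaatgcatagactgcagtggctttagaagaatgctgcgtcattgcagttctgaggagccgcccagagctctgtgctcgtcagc
The 3 C/EBPβ peaks that overlapped a RUNX2 peak, 1 at Ank and 2 at Slc20a1, each held 1 RUNX match and 0 matches to the C/EBP motif TTGCNNAA on either strand. In each, the RUNX match was the same one as in the RUNX2 peak that it overlapped. Over all undifferentiated C/EBPβ peaks, 28.9% held a RUNX match and 41.1% a C/EBP match. These shares are not a like background, since the 3 peaks were picked by their overlap with RUNX2. The shares among overlapping peaks alone were not computed. Overlap with a C/EBPβ peak was found for 3 of the 15 undifferentiated RUNX2 peaks of the 7 genes and 0 of the 6 differentiated ones, beside 31.1% and 22.2% of all RUNX2 peaks.

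The promoter marks of Slc20a1 were called at the same number of TSSs in both states. H3K4me3 lay at 5 of the 7 TSSs in both, in a region of 3.07 kb before and 3.60 kb after, and H3K9Ac, H4K5Ac and H3K4me1 lay at all 7. H3K9Ac covered 11.6% and 13.8% of the gene with its flanks, H4K5Ac 52.7% and 48.3%, and H3K4me1 63.2% and 57.5%. H3K36me3 covered 98.0% and 93.9% of the body. Over the gene body alone, H4K5Ac was lower by more than 10 points, a difference of -16.7.

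**Figure D3:**
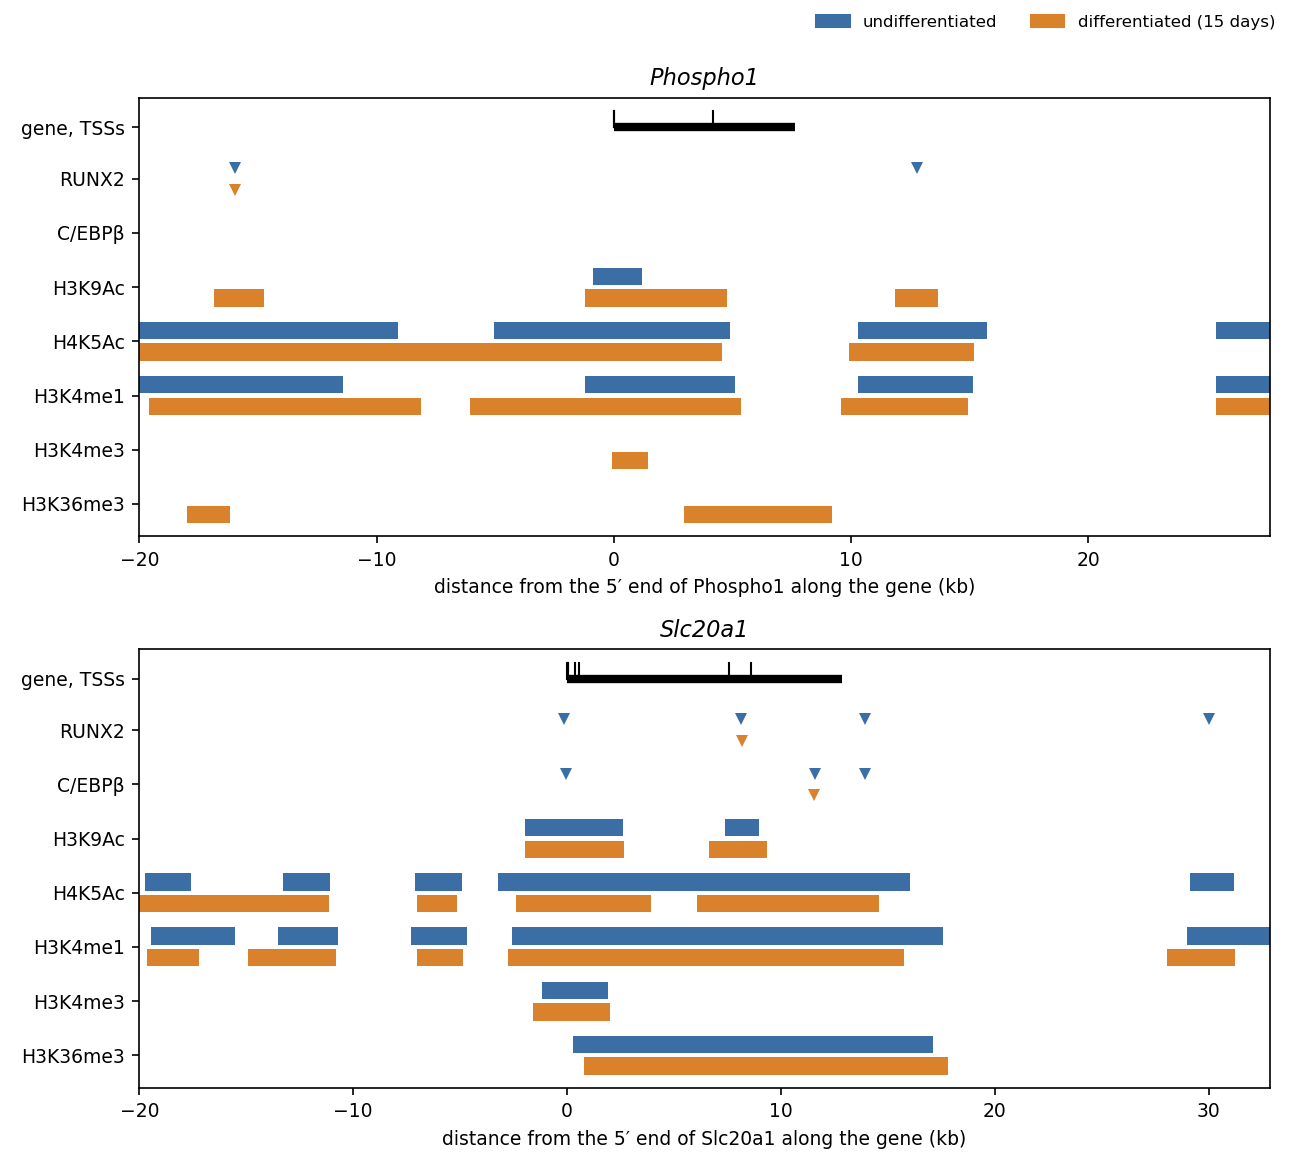
Peaks (triangles) and regions (bars) around Phospho1 (top) and Slc20a1 (bottom) by distance in kb from the 5′ end of each gene, in undifferentiated (blue) and differentiated (orange) cells; black bars are the genes and ticks their TSSs. At Phospho1 the H3K4me3 and H3K36me3 tracks hold orange bars alone, and at Slc20a1 both marks hold bars of each state. The RUNX2 and C/EBPβ peaks at the 5′ end of Slc20a1 are blue alone, while the RUNX2 peak near an internal TSS is there in both colours.

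Slc20a2, the second importer, had the marks of an active promoter in both states and no RUNX2 peak by nearest TSS. The gene lies at chr8:23587172-23680079 on the plus strand, spans 92.9 kb and has 1 annotated TSS, 179 bp from the 5′ end of the divergent AI316807. H3K4me3, H3K9Ac, H4K5Ac and H3K4me1 all lay at that TSS in both states, in regions that the 2 promoters share. H3K36me3 covered 42.4% and 44.8% of the body. Its stretch toward the 3′ end ran on over Vdac3, which is read from the opposite strand. With the top 50% of each list by score alone the H3K36me3 difference was -10.9 points. H3K9Ac covered 2.40% and 5.67% of the gene with its flanks, H4K5Ac 12.8% and 8.28%, and H3K4me1 20.5% and 17.3%. Inside the gene body, RUNX2 peaks lay at chr8:23645205-23645405 and chr8:23646925-23647125 before, and at chr8:23646919-23647119 after, but their nearest TSSs were those of AI316807 and Vdac3. An undifferentiated C/EBPβ peak at chr8:23646930-23647130 lay on the second of them. The 1 C/EBPβ peak given to Slc20a2, at chr8:23557132-23557332, was lost.

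Phex, the endopeptidase gene, lost its 1 RUNX2 peak while its C/EBPβ peaks went from 2 to 4. Fewer RUNX2 and more C/EBPβ peaks were shown by 2.0% of all genes. Phex lies at chrX:153596618-153853244 on the minus strand, spans 256.6 kb and has 3 annotated TSSs. The RUNX2 peak, at chrX:153851483-153851683, was centred 1635 bp downstream of the nearest TSS in an intron, and the closest differentiated RUNX2 peak was 3183 kb from the gene. It held 2 RUNX matches. C/EBPβ was kept at chrX:153766488-153766688, lost at chrX:153510862-153511062, and gained at chrX:153574084-153574284, chrX:153806967-153807167 and chrX:153807270-153807470. All of these C/EBPβ peaks held at least 1 C/EBP match. The lost peak and the gained peak at chrX:153574084-153574284 were centred between genes. The RUNX2 site and 3 of the C/EBPβ sites inside the gene are shown, with RUNX matches in capitals in the first and C/EBP matches in capitals in the others.
Phex RUNX2 lost, chrX:153851483-153851683: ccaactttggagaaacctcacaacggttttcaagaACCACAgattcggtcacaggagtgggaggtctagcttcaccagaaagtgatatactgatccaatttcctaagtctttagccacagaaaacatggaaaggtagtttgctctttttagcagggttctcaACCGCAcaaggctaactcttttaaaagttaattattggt
Phex C/EBPβ kept, chrX:153766488-153766688: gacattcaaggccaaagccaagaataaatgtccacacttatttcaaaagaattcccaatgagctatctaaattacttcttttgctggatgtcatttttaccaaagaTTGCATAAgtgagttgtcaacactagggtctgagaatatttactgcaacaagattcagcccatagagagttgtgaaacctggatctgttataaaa
Phex C/EBPβ gained, chrX:153806967-153807167: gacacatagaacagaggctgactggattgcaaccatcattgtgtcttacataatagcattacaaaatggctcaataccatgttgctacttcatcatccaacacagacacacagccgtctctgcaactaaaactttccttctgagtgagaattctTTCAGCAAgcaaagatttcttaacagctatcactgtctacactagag
Phex C/EBPβ gained, chrX:153807270-153807470: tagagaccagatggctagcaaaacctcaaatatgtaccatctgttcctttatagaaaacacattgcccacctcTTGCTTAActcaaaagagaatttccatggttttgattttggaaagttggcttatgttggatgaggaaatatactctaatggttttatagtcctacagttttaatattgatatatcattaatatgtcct
Further C/EBPβ peaks inside Phex lay over 100 kb from a TSS, at chrX:153711305-153711505 before, and at chrX:153711285-153711485 and chrX:153730488-153730688 after. By gene body plus 10 kb the C/EBPβ counts were 2 and 5, and with peaks within 500 bp merged they were 2 and 3.

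No H3K4me3, H3K9Ac or H3K36me3 region touched Phex in either state. H4K5Ac lay at 2 of its 3 TSSs before and 0 after, and loss of H4K5Ac from a promoter was found for 2.39% of all genes. H3K4me1 stayed at the same number, 2 of 3, in both. H4K5Ac covered 12.5% of the gene with its flanks before and 5.17% after, and H3K4me1 12.8% and 16.5%. The gained C/EBPβ peaks at chrX:153806967-153807167 and chrX:153807270-153807470 lay in H3K4me1 after and not before.

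Enpp1, which encodes the pyrophosphate-making enzyme, had 0 RUNX2 peaks, 1 C/EBPβ peak in each state and few marks. The gene lies at chr10:24357720-24431965 on the minus strand, spans 74.2 kb and has 5 annotated TSSs. The closest RUNX2 peak was 66.2 kb away before and 272.2 kb after. Its 1 C/EBPβ peak, centred in an intron at chr10:24367842-24368042, was kept with its partner 17 bp away, held 1 C/EBP match and lay in none of the 5 marks. Neither acetylation lay at a TSS in either state, which held for 42.6% of all genes. H3K4me1 was at 0 of the 5 TSSs before and at 4 after, through a narrow region of 1.81 kb at chr10:24430730-24432540. Gain of H3K4me1 at a promoter was found for 3.23% of all genes. H3K9Ac covered 0% and 1.36% of the window, H4K5Ac 5.40% and 3.92%, and H3K4me1 6.22% and 7.89%, and H3K36me3 covered 0% of the body in both.

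**Figure D4:**
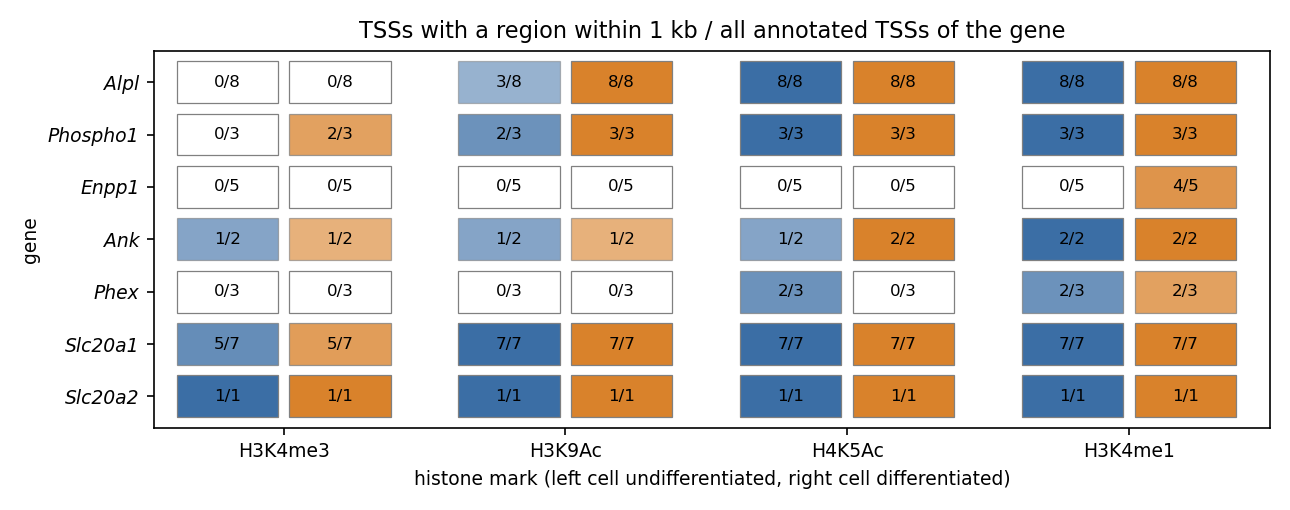
For each gene and mark, the number of annotated TSSs with a region within 1 kb over the number of TSSs, with undifferentiated cells on the left (blue) and differentiated cells on the right (orange) and darker shading for a larger share. Alpl had H3K9Ac at 3 of 8 TSSs before and 8 of 8 after, and Enpp1 had cells at 0 throughout except H3K4me1 in differentiated cells.

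Side by side, the promoters of the 7 genes fell into those with H3K4me3 and those without. Counting a gene once if any TSS was marked, H3K4me3 was at 3 of 7 promoters before and 4 after (34.9% and 40.1% of all genes), the added gene being Phospho1, and 6.6% of all genes gained the mark. H3K9Ac was at 5 in both states (49.2% and 52.5%), H4K5Ac at 6 and 5 (55.5% and 54.3%), and H3K4me1 at 6 and 7 (57.1% and 59.0%). RUNX2 was at 1 promoter of the 7 in each state, that of Slc20a1, where the peak at an internal TSS was kept (15.1% and 5.63% of all genes). C/EBPβ was at 1 promoter before and 0 after (10.7% and 6.55%), and 5.4% of all genes lost it there.

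The regions of each mark were also counted by nearest TSS. H3K4me3 had 1 region at Ank and 1 at Slc20a1 in both states, and 0 before and 1 after at Phospho1. That made 2 genes before and 3 after (30.5% and 35.6% of all genes), with more at 1 gene (8.15%) and fewer at 0 (2.58%). The H3K4me3 region of the Slc20a2 promoter was centred nearer to the TSS of AI316807 and is not in this count. H3K9Ac had 2 and 4 regions at Alpl, 1 and 3 at Phospho1, 2 and 6 at Ank and 2 and 2 at Slc20a1, so 4 genes had one in each state (47.0% and 53.2%). More were counted at 3 of the 7, Alpl, Phospho1 and Ank, against 21.7% of all genes, and fewer at 0, against 2.12%. H3K36me3 had 0 and 3 regions at Phospho1, 6 and 5 at Ank and 1 and 1 at Slc20a1 and at Slc20a2, or 3 genes before and 4 after (40.9% and 40.7%), with more at 1 (7.72%) and fewer at 1 (8.76%). H3K4me1 was listed for 6 genes before and 7 after (63.4% and 64.6%), from 0 and 1 regions at Slc20a2 to 15 and 11 at Ank, with more at 2 (20.5%) and fewer at 2 (14.7%).

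H4K5Ac had 3 and 2 regions at Alpl, 3 and 2 at Phospho1, 11 and 10 at Ank, 5 and 1 at Phex and 7 and 4 at Slc20a1, so 5 genes had one in each state (59.9% and 56.3%). Fewer were counted at all 5, against 23.3% of all genes, and more at 0, against 8.53%. Many of all genes had no region to lose: 13315 had one before, and 5187 had fewer after. At Ank the covered share of the window was nevertheless 24.3 points higher after. At Alpl and Phospho1 it was 2.37 and 2.60 points higher, which turned to -0.189 within 50 kb of Alpl and to -4.31 over the body of Phospho1. Cover higher by more than 10 points was found for H3K9Ac at 2 genes, Alpl and Phospho1 (6.08% of all genes), for H4K5Ac at 1, Ank (2.51%), and for H3K4me1 at 2, Phospho1 and Ank (5.05%). No gene of the 7 was lower by as much in these marks, where H4K5Ac was lower at 12.7% of all genes. H3K36me3 touched the body of 3 genes before and 4 after (50.4% and 50.1% of all genes) and was higher by more than 10 points at 2, Phospho1 and Ank (5.13%). The median H3K9Ac cover of the 7 was 2.40% before and 7.35% after, beside 3.59% and 5.25% over all genes. The median H4K5Ac cover was 32.5% and 48.3%, beside 12.9% and 9.24%, and its median difference was -1.49 points because different genes hold the middle place in each state.

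**Figure D5:**
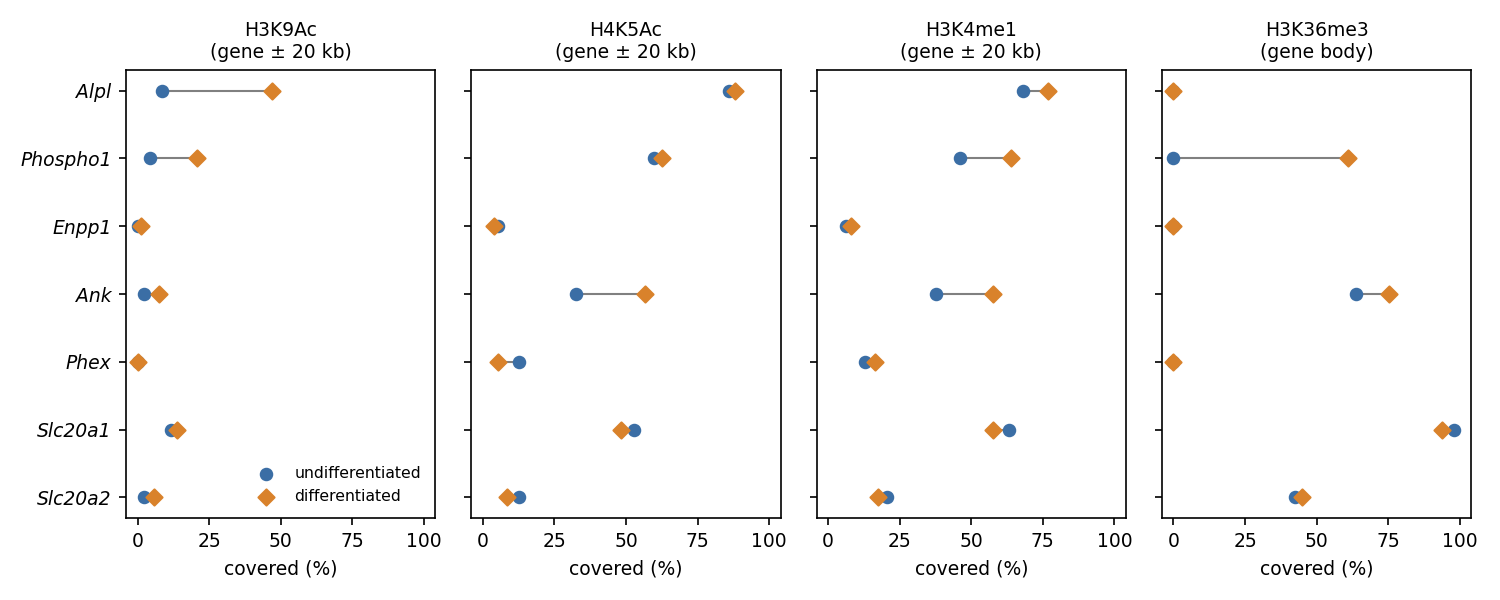
Percentage of the gene with 20 kb on each side covered by H3K9Ac, H4K5Ac and H3K4me1 regions, and of the gene body covered by H3K36me3, in undifferentiated (circles) and differentiated (diamonds) cells, with 1 list per point. Alpl had 8.54% before and 46.9% after in H3K9Ac, Ank 32.5% and 56.8% in H4K5Ac, and Phospho1 0% and 61.1% in H3K36me3.

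The sites of the RUNX2 peaks lay mostly in H4K5Ac and H3K4me1. All 15 undifferentiated peaks of the 7 genes lay in H4K5Ac and H3K4me1 in the same cells, against 97.1% and 96.6% of all RUNX2 peaks. In differentiated cells 13 of the 15 sites lay in H4K5Ac and 15 in H3K4me1, beside 93.9% and 98.2% of all undifferentiated RUNX2 peaks. For H4K5Ac these were 5 of 5 kept and 8 of 10 lost sites, beside 96.7% and 92.3% over the whole list. H3K9Ac held 5 of the 15 sites before and 12 after, beside 55.0% and 77.0% of all RUNX2 peaks. Among the 10 lost sites H3K9Ac held 3 before and 7 after, beside 54.7% and 73.6% of all lost RUNX2 peaks. Among the 5 kept sites it held 2 and 5, beside 55.4% and 83.0% of all kept ones. None of the 15 peaks was centred in an exon, 9 were centred in introns and 6 between genes. A C/EBP match was found in 7 of 14 undifferentiated and 6 of 9 differentiated C/EBPβ peaks, beside 41.1% and 44.8% of all C/EBPβ peaks and 8.59% and 8.42% of windows to the side.

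The genes closest in pattern were found over 14 values per gene, namely the peak counts of the 2 factors, the 8 promoter calls and the H3K36me3 cover as a fraction, by the sum of absolute differences. For Slc20a1 these were Rassf2 at 0.0333, Kctd10 at 0.0457 and Ccng2 at 0.239, which share its counts of 4 and 1 RUNX2 and 3 and 1 C/EBPβ peaks. For Slc20a2 they were Taf4a at 0.0223, Asnsd1 at 0.0368 and Osbpl8 at 0.0399, and for Phospho1 Klf5 at 0.285, Gprc5c at 0.413 and Ccdc126 at 0.571. Enpp1 had 11 genes at a distance of 0, among them Ckmt2, Galntl1 and Gdf6. Those of Ank were Tnfaip3 at 1.31, Fam13c at 1.47 and Trak1 at 1.49, and those of Phex were Serpina12 at 2.0, Musk at 2.05 and Ide at 2.79. Alpl stood farthest from its neighbours, with Mapt at 3.10, Tmsb10 at 3.63 and Cmklr1 at 4.0. Peak counts entered the sum unscaled, so a gene with many peaks tends to lie far from others. Alpl had 6 RUNX2 peaks in undifferentiated cells, and 0.886% of all genes had 6 or more. Its distance is not a measure apart from such counts.

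A further list of 28 genes of phosphate transport and sensing, extracellular nucleotides, matrix vesicles and mineral-binding matrix was read in the same way. RUNX2 peaks were present at 16 before and 12 after (27.3% and 15.0% of all genes) and numbered 40 and 19. They were fewer at 11 genes and more at 0, beside 19.8% and 2.92% of all genes, and 11 of 16 is near the 72.6% with fewer among all genes that had a peak. C/EBPβ peaks numbered 39 and 21, fewer at 10 genes and more at 3, beside 16.1% and 6.16% of all genes. More H3K9Ac regions were counted at 15 of the 28 and fewer at 2, beside 21.7% and 2.12% of all genes. H3K4me3 was at 9 promoters before and 11 after (34.9% and 40.1% of all genes), added at Fam20c, P2rx7 and Spp1 and absent after at Ppa2. H3K36me3 cover was higher by more than 10 points at 4 genes (5.13% of all genes), Xpr1, Fam20c, Nt5e and Ibsp, and lower at 2 (4.71%), Entpd5 and Panx3. Among phosphate carriers, Xpr1, the phosphate exporter, had 1 RUNX2 peak in each state, Slc25a3, the mitochondrial carrier, had 1 and 0, and Slc34a1 and Slc34a2 had a C/EBPβ peak before and not after. Of genes of phosphate sensing, Fgfr1, a receptor of FGF23, had 2 and 1 RUNX2 peaks and Galnt3, which protects FGF23 from cleavage, 1 and 1, and Fgf23, the phosphate-lowering hormone, had 0 RUNX2 peaks in both states and 1 C/EBPβ peak after. Among the genes of extracellular nucleotides, Nt5e, which makes adenosine from AMP, had 3 and 1 RUNX2 peaks and H3K36me3 over 17.5% and 61.5% of its body. Enpp3, a relative of Enpp1, had 1 and 0, P2rx7, an ATP-gated channel, 2 and 2, and Panx3, a channel of osteoblasts, 2 and 1 with H3K36me3 over 83.7% and 0%.

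Of the matrix vesicle genes on that list, Smpd3, a sphingomyelinase, had 2 RUNX2 peaks before and 0 after, and of the calcium-binding annexins Anxa2 had 6 and 2 and Anxa5 4 and 1. Of the mineral-binding proteins, Spp1, which encodes osteopontin, had 7 and 4, Mgp, an inhibitor of mineralisation, 4 and 2, Ibsp, bone sialoprotein, 1 and 1, and Dmp1 1 and 0, while Mepe had 2 C/EBPβ peaks in each state and 0 RUNX2 peaks. Ibsp had H3K36me3 over 0% and 86.5% of its body. Fam20c, the kinase of secreted phosphoproteins, had 2 RUNX2 peaks in each state and H3K36me3 over 59.5% and 95.9% of its body. Neither factor had a peak in either state at Slc34a3, Kl, Abcc6, Entpd5, Ppa1, Ppa2, Anxa6 or Ahsg.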

How the data were processed

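The deposited files were peak lists, which the authors made by aligning reads with Bowtie to mm9 and calling peaks with HOMER, per the submitters' processing notes. Neither the settings nor a version of these programs is given in the labels or those notes. As the labels have it, each list merges biological replicates, and each deposited peak name records at least 2 merged peaks. The value per peak was the authors' own score, which was used solely to rank regions of a mark within its own list. RUNX2 and C/EBPβ peaks were 201 bp wide (1 was clipped at a chromosome start), and mark regions were at least 1001 bp wide. The state of the differentiated H3K36me3 sample was taken from its title and source name. Its treatment label was garbled and its cell line label read undifferentiated. All H3K36me3 differences between the states rest on that choice. The antibody label H4K5Ac was used where the protocol reads H3K5Ac.

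Genes were the 22239 symbols of GENCODE vM1 on NCBIM37, which is mm9, with 70022 TSSs. Positions are 1-based. Peaks went to the nearest TSS within 100 kb of their centre. A promoter was within 1 kb of any TSS. Cover was taken over the gene with 20 kb on each side and, for H3K36me3, over the gene body. A cover difference was counted when above 10 percentage points. Motifs were searched on both strands of the peak sequence, and sequences were read from the mm9 genome. No test was made, since each antibody and state had 1 list, and depth is unknown. The genes, the further list of 28 and the measures were chosen with earlier results of these data known. Of the further list, genes with a peak of either factor are named by role and not in list order. The single H3K36me3 values beside them were chosen after being seen. Combinations of marks or counts given with a share of all genes at Alpl, Phospho1 and Phex follow what those genes showed. Such shares do not test how unusual the genes are. The neighbours in pattern are the 3 genes with the smallest distance, ties by name, without chromosome 18 and unnamed gene models. Overlap, assignment and cover steps were checked on simulated data, and the motif search was not. Python 3.11.15, pandas 2.3.3, numpy 2.4.6, pysam 0.24.0, samtools 1.23.1 and matplotlib 3.10.9 were used.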

Additional observations from a re-analysis of the deposited data

How the results depend on the processing

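No paired analysis was possible because each antibody and state had 1 merged list. Other assignments of peaks, distance limits, overlaps, promoter windows, gene bodies and score limits were tried. Of 168 recomputed summary values, all of them counts, 155 stayed within 1.5 times and 13 moved. Of 322 values for single genes, 19 moved. Cover differences of up to 10 points were treated as no change, and 6 of these turned sign, Slc20a2 in H3K36me3 to -10.9, Phospho1 in H4K5Ac to -4.31, Phex in H3K4me1 to -2.34, Enpp1 in H3K4me1 to -0.365, Alpl in H4K5Ac to -0.189 and Ank in H3K9Ac to -0.143. With peaks within 20 kb of any TSS, C/EBPβ peaks at the 7 genes numbered 8 and, in differentiated cells, 2, of which 2 were kept and 0 genes had more. On the further list, genes with a differentiated RUNX2 peak then numbered 7, and genes with fewer C/EBPβ peaks 6, as they did by gene body plus 10 kb (6). With the top 50% of each list by score, H3K9Ac was at 3 promoters in undifferentiated cells, and H3K36me3 was higher at 0 genes and lower at 1. Over the gene body alone, H4K5Ac was lower at 1 gene and H3K4me1 higher at 1. With the longer list cut to the length of the shorter, H3K9Ac cover was higher at 1 gene, Alpl. Score limits could not be applied to RUNX2 and C/EBPβ, whose scores were all 0. A peak list gives no read depth, so an absent peak cannot be told from one under the calling threshold, and the marks of neighbours that overlap or adjoin Phospho1, Ank and Slc20a2 cannot be assigned to 1 gene.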
